A study of Mus musculus with 18 samples.

Results

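Prostaglandins, thromboxane and leukotrienes are eicosanoids, lipid mediators that cells make from arachidonic acid. A group of 10 genes of these pathways, Ptgs1, Ptgs2, Ptges, Ptgds, Hpgds, Tbxas1, Hpgd, Ptger4, Alox5 and Alox5ap, was chosen by symbol from the 36172 genes of the count table. The rule matched symbols, but the 10 genes were chosen with earlier results of these data known. They were followed by RNA sequencing in translating ribosome affinity purification (TRAP) of Cx3cr1-cre/ERT2+; NuTRAP+ mouse brain after lipopolysaccharide (LPS), an endotoxin of Gram-negative bacteria.

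All animals were about 3 months old when given tamoxifen and carried 1 cre/ERT2 allele and 1 NuTRAP allele. Tamoxifen had switched on an EGFP-tagged ribosomal protein in their cells that express Cx3cr1, which are mainly microglia but also other macrophages of the brain's borders. Some weeks passed after tamoxifen, a delay the paper used to avoid label in circulating monocytes. Mice then received 5 mg/kg LPS or phosphate-buffered saline (PBS) intraperitoneally, and 1 brain hemisphere was homogenised 24 h later. RNA of the homogenate, cleared by centrifugation, gave the Input library. RNA on ribosomes pulled down with the tag gave the Positive library of the same animal. The LPS animals were 266, 270, 271 and 507 (female) and 267 (male), and the PBS animals were 268 and 506 (female) and 272 and 273 (male).

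Of the 18 libraries, Input LPS of animal 271 held 1252 counts and was left out, so Input PBS, Input LPS and Positive PBS had 4 libraries each and Positive LPS had 5. The 17 libraries held from 22968939 to 35123345 counts. Positive LPS of animal 271, from the animal with the failed input, stood apart in the ribosomal RNA precursor Rn45s, with 411785 normalised counts against 32051 to 91694 in the other libraries. The 8 microglia markers, Cx3cr1 among them, were each higher in Positive than in Input, and their summed counts were 182258 to 224696 in Positive PBS and 152832 to 211764 in Positive LPS against 9536 to 13661 in the Input libraries. RNA of other brain cells was present in the positive fraction as well. The 6 neuron markers summed to a mean of 205885 normalised counts in Positive PBS against 187592 in Input PBS, and to 173419 against 172954 in LPS animals. For the 6 astrocyte markers the means were 121406 against 98646 in PBS and 119821 against 117056 in LPS animals. Neither mean was lower in the positive fraction. Within LPS animals, the neuron sum was lower there in 266 (145872 against 173931) and 507 (166451 against 169480) and higher in 267 and 270. The astrocyte sum was lower in 266 (115800 against 122042) and 270 (106980 against 108163) and higher in 267 and 507. In every PBS animal both sums were higher in the positive fraction. Of the astrocyte sum, Slc1a2 alone held a mean of 87728 in Positive PBS and 72666 in Positive LPS. By the test described below, 1 astrocyte marker was higher and 2 were lower in Positive PBS than in Input PBS. In LPS animals these were 1 and 3. Of the neuron markers, 2 were higher and 0 lower in both treatments. In this mouse line, the paper reported depletion of astrocyte and neuron markers in the positive fraction by qPCR. It reported the same by RNA sequencing, over marker lists from cell-sorting studies. Values are counts divided by a size factor for library depth (normalised counts), given in the order of animals 268, 272, 273 and 506 for PBS, of 266, 267, 270 and 507 for Input LPS, and of 266, 267, 270, 271 and 507 for Positive LPS.

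As background, phospholipases free arachidonic acid from membranes, and the cyclooxygenases encoded by Ptgs1 and Ptgs2 turn it into prostaglandin H2. Terminal synthases then make prostaglandin E2 (Ptges), prostaglandin D2 (Ptgds and Hpgds) or thromboxane A2 (Tbxas1), and 15-hydroxyprostaglandin dehydrogenase (Hpgd) inactivates prostaglandins. In a separate branch, 5-lipoxygenase (Alox5) and its activating protein (Alox5ap, also known as FLAP) start leukotriene synthesis. Prostaglandin E2 made in the brain after endotoxin is known for its part in fever, and Ptger4 encodes EP4, one of its receptors.

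The genes lie on 6 mouse chromosomes, in mm10 coordinates of the deposited gene models. Ptgs2 is on chromosome 1 (150100124 to 150108012, plus strand), and chromosome 2 carries Ptgds (25466712 to 25469749, minus), Ptges (30889471 to 30903297, minus) and Ptgs1 (36230426 to 36252269, plus). Alox5ap is on chromosome 5 (149265058 to 149288047, plus). Chromosome 6 carries Tbxas1 (38918986 to 39084579, plus), Hpgds (65117293 to 65144730, minus) and Alox5 (116410071 to 116461178, minus). Hpgd is on chromosome 8 (56294552 to 56321046, plus) and Ptger4 on chromosome 15 (5233404 to 5243831, minus). Gene models on the opposite strand overlap Alox5ap (Gm19719), Tbxas1 (1700025N23Rik) and Alox5 (Gm19923), and the libraries and their alignment kept the strand.

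Promoter sequences from RefSeq (GRCm38.p6, from 250 bases before to 50 bases after the start of the gene's transcript) were matched for 9 of the 10 genes by symbol. Those of 5 genes are shown as examples of genes that rose (Ptgs2, Ptges and Alox5) or fell (Hpgd and Hpgds) after LPS in the positive fraction, as described further on. Capitals mark every match, on either strand, to the motifs searched for, which were AP-1 (TGACTCA, or equally TGAGTCA), CRE (TGACGTCA), PU.1 (GAGGAAGT), C/EBP (TTNNGCAA), E-box (CACGTG), the TATA motif with letters TATAAA, GC box (GGGCGG) and NF-kB.
Ptgs2, chr1:150099781-150100080, plus strand: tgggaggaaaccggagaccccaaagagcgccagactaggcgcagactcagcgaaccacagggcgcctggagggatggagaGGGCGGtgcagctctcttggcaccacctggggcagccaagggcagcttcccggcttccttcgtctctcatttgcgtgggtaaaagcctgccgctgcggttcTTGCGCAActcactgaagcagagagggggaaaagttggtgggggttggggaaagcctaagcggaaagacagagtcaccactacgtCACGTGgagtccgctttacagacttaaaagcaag
Ptges, chr2:30903248-30903547, minus strand: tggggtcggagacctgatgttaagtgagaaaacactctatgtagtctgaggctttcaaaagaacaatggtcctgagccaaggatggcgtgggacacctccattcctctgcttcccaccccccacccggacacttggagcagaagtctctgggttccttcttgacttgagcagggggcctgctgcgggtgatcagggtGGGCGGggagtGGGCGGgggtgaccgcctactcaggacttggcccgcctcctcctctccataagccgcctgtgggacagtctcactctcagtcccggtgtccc
Alox5, chr6:116461129-116461428, minus strand: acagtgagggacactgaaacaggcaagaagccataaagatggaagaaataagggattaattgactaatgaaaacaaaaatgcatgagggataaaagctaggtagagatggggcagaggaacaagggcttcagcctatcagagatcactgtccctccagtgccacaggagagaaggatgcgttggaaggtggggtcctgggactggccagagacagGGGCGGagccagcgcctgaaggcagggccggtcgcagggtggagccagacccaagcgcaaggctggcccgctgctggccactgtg
Hpgd, chr8:56294302-56294601, plus strand: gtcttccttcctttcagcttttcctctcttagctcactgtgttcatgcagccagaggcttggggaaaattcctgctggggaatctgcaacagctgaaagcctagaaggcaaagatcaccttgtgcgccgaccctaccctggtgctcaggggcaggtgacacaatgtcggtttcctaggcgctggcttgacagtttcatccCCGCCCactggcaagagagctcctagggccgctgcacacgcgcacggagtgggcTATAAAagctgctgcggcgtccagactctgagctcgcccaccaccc
Hpgds, chr6:65144681-65144980, minus strand: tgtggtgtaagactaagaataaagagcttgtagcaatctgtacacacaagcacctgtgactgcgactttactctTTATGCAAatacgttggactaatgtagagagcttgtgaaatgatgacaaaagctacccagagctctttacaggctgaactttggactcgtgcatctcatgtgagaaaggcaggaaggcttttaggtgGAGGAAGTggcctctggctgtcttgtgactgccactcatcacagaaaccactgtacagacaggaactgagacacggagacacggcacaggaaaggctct

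Of these promoters, Ptgs2 held a palindromic C/EBP match (TTGCGCAA) at position -69, an E-box at 17 and a GC box at -170, counting the first base of the transcript as 1 and the base before it as -1. Ptges held 2 GC boxes, at -53 and -42, and Alox5 held 1, at -35. Hpgd held a GC box at -50 and a TATA match at 5, and Hpgds held a PU.1 match at -49 and a C/EBP match at -176. Among the promoters not shown, Ptgs1 had a PU.1 match at -24, Tbxas1 a TATA match at -11, Ptgds an AP-1 and an NF-kB match at -35 and -22, and Ptger4 4 GC boxes. In all 32851 promoters of the table, a PU.1 match was present in 3.20%, C/EBP in 10.8%, E-box in 7.15%, TATA in 13.6%, GC box in 35.7%, AP-1 in 5.20%, CRE in 1.79% and NF-kB in 4.51%. A match says only that these letters occur in the window, and for Ptgs2 and Ptger4 the RefSeq start differs from the end of the gene model that was counted.

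The first question was how LPS changed the 10 genes in the positive fraction, the RNA pulled down with the ribosome tag of Cx3cr1 cells. There, 4 genes rose (Ptges, Alox5, Ptger4 and Ptgs2) and 3 fell (Hpgd, Tbxas1 and Hpgds), and Ptgs1, Ptgds and Alox5ap did not pass the test. A gene was called at an adjusted p under 0.05 (edgeR quasi-likelihood test, Benjamini-Hochberg over the 14803 genes tested) with a level over 25% higher in one group than in the other, and all 10 genes were among those tested. Over all genes tested, 33.8% were called in this comparison, 19.0% higher and 14.9% lower. The median log2 fold change was 0.09 over the 10 genes and 0.01 over all genes tested. Leaving out Positive LPS of animal 271 left 7 genes called. Because these are bulk libraries, fewer cells of a type and less RNA per cell cannot be told apart.

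**Figure D1:**
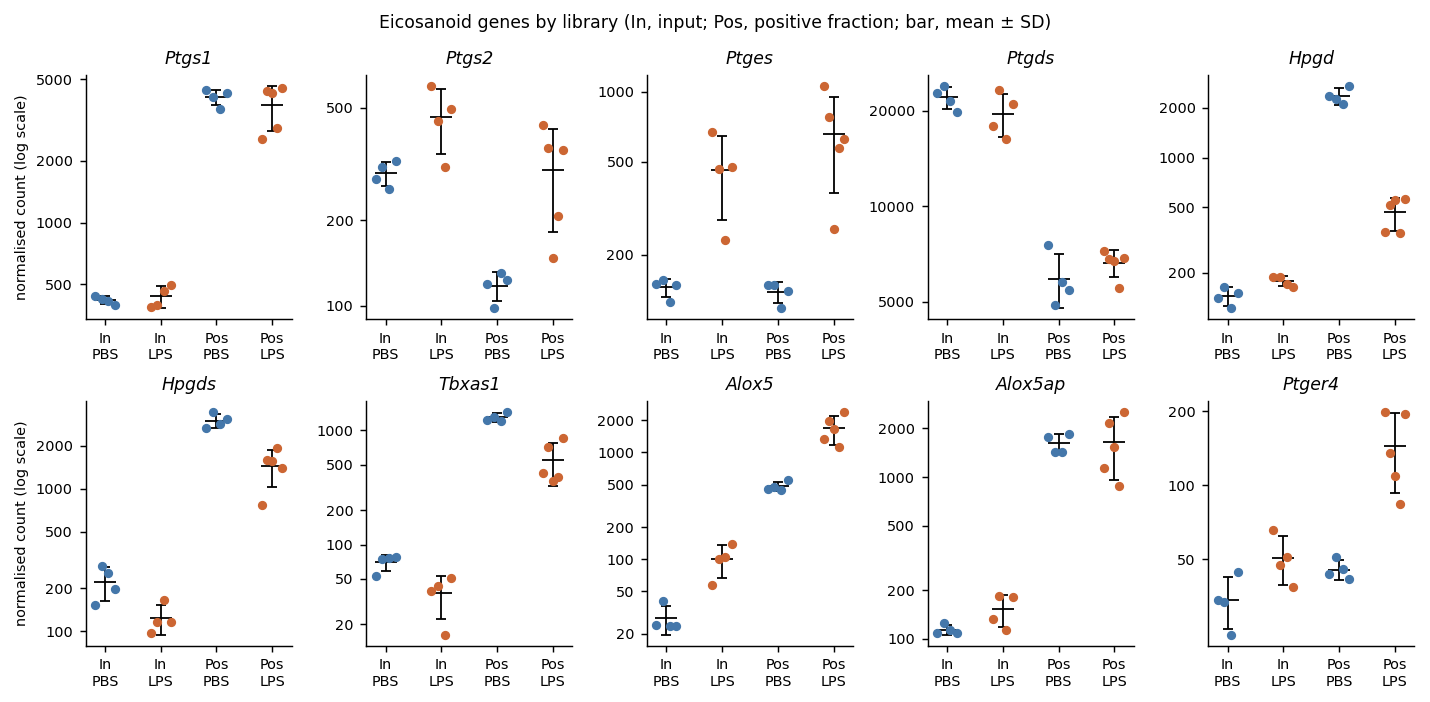
Normalised counts on a log scale for the 10 genes, 1 point per library, in Input (In) and Positive (Pos) libraries of PBS (blue) and LPS (orange) animals, with bars for the mean ± SD of 4 libraries, or of 5 in Positive LPS. In the positive fraction the LPS libraries lay above all PBS libraries for Ptgs2, Ptges, Alox5 and Ptger4 and below them for Hpgd, Hpgds and Tbxas1.

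Ptgs1 and Ptgs2 encode the constitutive and the inducible cyclooxygenase. Ptgs1 stood at 4420, 4072, 3586 and 4266 normalised counts in Positive PBS and at 2565, 4361, 4294, 2884 and 4524 in Positive LPS. Its groups overlapped, since animals 266 and 271 lay below the PBS range and 507 above it, and the log2 fold change was -0.13 (SE 0.14, 95% confidence interval -0.43 to 0.16, adjusted p 0.474, edgeR). Input held 441, 422, 416 and 398 in PBS and 387, 395, 466 and 498 in LPS animals, again overlapping, with an estimated change of 0.06 (95% confidence interval -0.27 to 0.39, adjusted p 0.845). Ptgs2 was low in the positive fraction of PBS animals, at 119, 98.0, 131 and 123 normalised counts, and reached 436, 360, 147, 208 and 355 after LPS. All 5 LPS libraries exceeded the highest PBS library, although animal 270 did so only narrowly. The log2 fold change was 1.35 (SE 0.26, adjusted p 4.79e-04, edgeR), or 2.55-fold.

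In Input, Ptgs2 was measured at 281, 309, 259 and 323 normalised counts in PBS and at 598, 448, 310 and 496 in LPS animals. Animal 270 again was the lowest LPS library and fell inside the PBS range, and the log2 fold change of 0.66 (SE 0.26) did not pass the test (adjusted p 0.0959, edgeR). With the input libraries fitted alone it passed, at 0.65 (adjusted p 0.0223), and likewise without Positive LPS of animal 270, at 0.66 (adjusted p 0.0342). The LPS effect on Ptgs2 did not differ between fractions in the fit without pairing (difference 0.69, adjusted p 0.313), whereas with the animal as a replicate block it did (0.75, adjusted p 0.0214, edgeR).

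Ptges, which encodes the inducible microsomal prostaglandin E synthase, had the largest rise of the 10 genes in the positive fraction. Its values were 149, 149, 118 and 140 normalised counts in Positive PBS and 1062, 777, 259, 576 and 626 in Positive LPS. Every LPS library lay above every PBS library, and the LPS libraries spread over 4.11-fold from animal 270 to animal 266. The mean went from 139 ± 15.0 (n = 4) to 660 ± 294 (n = 5), and the log2 fold change was 2.24 (SE 0.32, adjusted p 2.81e-05, edgeR). Input showed a similar picture, with 150, 156, 126 and 148 normalised counts in PBS and 675, 467, 232 and 476 in LPS animals. There too the groups were apart with animal 270 lowest and 266 highest, and the log2 fold change was 1.67 (SE 0.33, adjusted p 0.00173). Ptges and Ptgs2 thus shared the lowest and the highest LPS animal in both fractions.

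Values of other cell types moved alongside Ptges and Ptgs2. The summed level of the 10 neutrophil and monocyte markers was 302 to 527 normalised counts in Positive PBS and 552 to 1205 in Positive LPS, and 503 to 870 and 797 to 1696 in Input, with animal 270 lowest among LPS animals in both fractions. S100a8, which rose most of them in Positive, did so 26.4-fold there (adjusted p 9.38e-07, edgeR) and 4.01-fold in Input libraries (adjusted p 0.00302). In Positive, Ngp rose 5.45-fold, Retnlg 4.43-fold and S100a9 3.74-fold, whereas Ccr2 fell to 0.198 of its PBS level. Cxcr2 held a mean of 384 of the 703 summed in Input PBS and did not change in Positive (1.01-fold). It was also among the genes most alike to Ptgds, given further on, so the sum is not a measure of these cells alone. Ly6g, which defines neutrophils, is listed at 0 in every library, but so is Acta2, an actin of smooth muscle, and nothing was read from either 0. Of the 7 markers of this list that were tested, 4 were higher and 1 was lower after LPS in the positive fraction. The 6 endothelial markers summed to 1940 to 2976 in Input PBS and 2910 to 4166 in Input LPS, and to 5139 to 7740 and 4722 to 7453 in the positive fraction, where 1 of the 6 was called higher and 2 lower. Of the 6 astrocyte markers, Gfap, which reactive astrocytes express more of, had a log2 fold change of 1.95 in Positive (adjusted p 8.36e-09, edgeR) and 2.07 in Input libraries (adjusted p 3.60e-08), and was called higher in both. Among the other 5, 1 fell in the positive fraction, and 1 rose and 1 fell in Input, and the list's median log2 fold changes were -0.23 and -0.06. The part of these cells in the Ptges and Ptgs2 values was not tested.

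Prostaglandin D2 has a pair of synthases, the lipocalin type of Ptgds, made by oligodendrocytes, choroid plexus and meninges, and the haematopoietic type of Hpgds. Ptgds was by far the most abundant of the 10 genes, also per length, with 22745, 23946, 21480 and 19840 normalised counts in Input PBS and 17886, 23129, 16291 and 20924 in Input LPS. Neither fraction showed an LPS effect on Ptgds past the test. The log2 fold change was -0.17 in Input (95% confidence interval -0.44 to 0.10, adjusted p 0.415) and 0.17 in Positive (-0.09 to 0.42, adjusted p 0.290, edgeR).

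Hpgds fell after LPS in both fractions. In the positive fraction it went from 2664, 3449, 2840 and 3055 normalised counts in PBS to 770, 1596, 1557, 1927 and 1399 in LPS animals, with no overlap. The log2 fold change was -1.05 (SE 0.21, adjusted p 5.40e-04, edgeR), a fall to 0.483 of the PBS level. Input held 152, 287, 255 and 198 normalised counts in PBS and 97.1, 117, 165 and 116 in LPS animals. Here the ranges overlapped through PBS animal 268 and LPS animal 270, and the log2 fold change of -0.85 (SE 0.24, adjusted p 0.0254) had the highest adjusted p of the LPS effects called. It was lost on leaving out Input LPS of animal 266 (-0.75), 267 (-0.83) or 507 (-0.82), Input PBS of 272 (-0.71) or 273 (-0.78), or animals 506 and 507 together (-0.87).

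Tbxas1, the thromboxane synthase, also fell in the positive fraction, with other LPS animals lowest and highest than for Hpgds. In Positive libraries the PBS values of 1240, 1324, 1199 and 1453 normalised counts compared with 422, 716, 359, 390 and 864 after LPS. The groups were apart, and the log2 fold change was -1.24 (SE 0.25, adjusted p 5.79e-04, edgeR). In Input, at 52.7, 74.3, 75.8 and 77.5 in PBS and 39.2, 43.3, 16.3 and 51.4 in LPS animals, the ranges did not touch either. The log2 fold change of -0.89 (SE 0.32) had an adjusted p of 0.0737 with edgeR, and it passed with DESeq2 (-0.90, adjusted p 0.0187), with limma (-0.98, adjusted p 0.0387) and without Positive LPS of animal 507 (-0.89, adjusted p 0.0437). Platelets and mast cells also make thromboxane and prostaglandin D2, respectively. Summed over 6 platelet markers, Positive libraries held 782 to 852 normalised counts in PBS and 360 to 690 in LPS animals. Of the 4 tested, 2 were called lower, Gp1bb (log2 fold change -0.73) and Gp9 (-1.61). Itga2b (0.25) and Gp1ba (0.14) were not called, so the list did not fall as a whole. Gp1bb held a mean of 537 of the 802 summed in Positive PBS, and 543 in Input PBS. Gp9 was 25.3-fold higher in Positive than in Input libraries of PBS animals. The 5 mast cell markers summed to 71.8 to 115 and 2.21 to 59.3, and the 1 that was tested was called lower. The part of these cells in the fall of Tbxas1 and Hpgds was not tested.

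Hpgd, whose enzyme inactivates prostaglandin E2, had the largest fall. In the positive fraction it stood at 2350, 2260, 2099 and 2727 normalised counts in PBS animals and at 355, 519, 551, 347 and 558 in LPS animals. Each LPS library was under the lowest PBS library by a wide margin, and the log2 fold change was -2.34 (SE 0.14, adjusted p 1.29e-09, edgeR), a 5.06-fold fall. Input went the other way without passing the test. It held 140, 165, 122 and 152 normalised counts in PBS and 188, 190, 171 and 165 in LPS animals, and the log2 fold change was 0.30 (95% confidence interval -0.03 to 0.64, adjusted p 0.232).

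Border-associated macrophage markers fell in the same libraries as Hpgd. Their 6 genes summed to 3175 to 6821 normalised counts in Positive PBS and 2245 to 3303 in Positive LPS, which overlapped, and 4 of the 6 were called lower. Lyve1, one of them, went from a mean of 925 to 176 (log2 fold change -2.39, SE 0.33, adjusted p 1.61e-05, edgeR), and Cd163, another, stood at 997 and 1107. Of the 8 microglia markers, 3 were called lower, 2 higher and 3 did not pass. P2ry12 fell most, by 2.47 on the log2 scale (SE 0.20, adjusted p 4.11e-08, edgeR), while Cx3cr1 had a log2 fold change of -0.20 (adjusted p 0.411). The 2 that rose were Itgam (0.85) and C1qa (0.49). How far border macrophages took part in the Hpgd values was not tested.

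Ptger4, the EP4 receptor, was among the lowest of the 10 genes. Positive libraries held 43.6, 50.9, 45.7 and 41.4 normalised counts in PBS and 199, 135, 109, 83.9 and 196 in LPS animals. All LPS libraries were higher, with 271 the lowest, and the log2 fold change was 1.67 (SE 0.26, adjusted p 6.63e-05, edgeR). Input values of 34.0, 33.5, 24.7 and 44.6 in PBS and 66.0, 47.2, 51.0 and 38.4 in LPS animals overlapped, and the log2 fold change of 0.57 (SE 0.28, adjusted p 0.191) did not pass.

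In the leukotriene branch, the enzyme and its activating protein parted. Alox5 rose in the positive fraction from 458, 470, 442 and 548 normalised counts to 1327, 1952, 1648, 1116 and 2389. The lowest LPS library was above the highest PBS library, and the log2 fold change was 1.81 (SE 0.23, adjusted p 5.91e-06, edgeR). In Input it rose from 24.3, 40.8, 23.7 and 23.8 to 56.8, 101, 104 and 140 normalised counts. The log2 fold change was 1.83 (SE 0.29, adjusted p 2.62e-04), and the groups were again apart.

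Alox5ap held 1778, 1423, 1428 and 1854 normalised counts in Positive PBS and 1146, 2165, 1527, 875 and 2526 in Positive LPS. The LPS libraries fell on both sides of the PBS range, with 271 lowest and 507 highest, and the log2 fold change was 0.02 (SE 0.23, 95% confidence interval -0.46 to 0.51, adjusted p 0.941, edgeR). Input held 109, 125, 113 and 109 in PBS and 133, 184, 114 and 181 in LPS animals, and the log2 fold change was 0.43 (SE 0.27, adjusted p 0.324). Granulocytes and monocytes also express both genes, and the summed neutrophil and monocyte markers of these libraries, given with Ptges, reached higher levels after LPS. Their part in the Alox5 rise was not tested.

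Input was the second setting for the LPS effect, and asked what the cleared homogenate showed before the pull-down. Of the 10 genes, 2 rose (Alox5 and Ptges) and 1 fell (Hpgds). Over all genes tested, 12.4% were called in Input, 7.16% higher and 5.26% lower. The median log2 fold change in Input was 0.37 over the 10 genes and 0.00 over all genes tested.

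**Figure D2:**
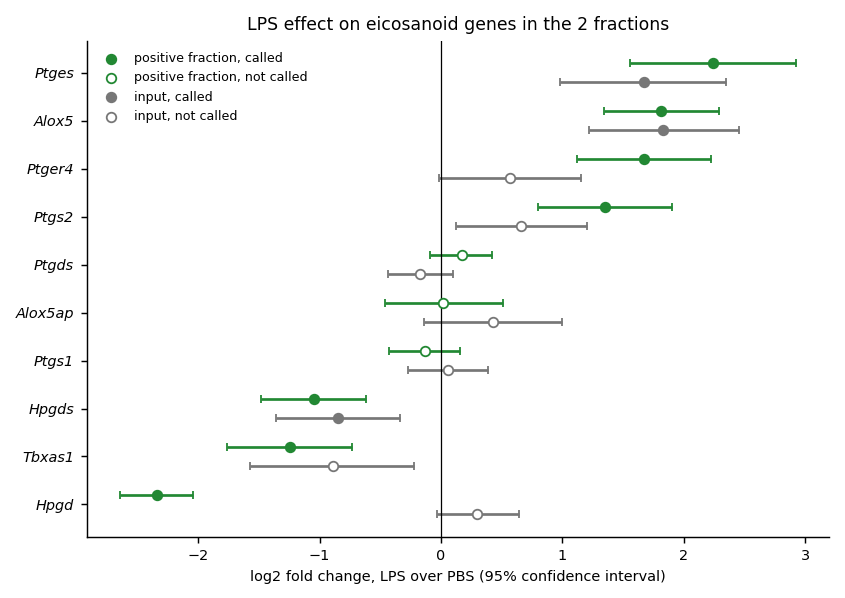
Log2 fold change of LPS over PBS with its 95% confidence interval for each of the 10 genes, in the positive fraction (green) and in input (grey), filled where called. Hpgd, at -2.34 in the positive fraction and 0.30 in input, was the gene whose estimates lay furthest apart, and those of Alox5, at 1.81 and 1.83, nearly coincided.

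Whether the LPS effect differed between fractions was tested as an interaction. Hpgd was the single gene of the 10 called, with a log2 difference, positive fraction minus Input, of -2.64 (SE 0.21, adjusted p 2.35e-06, edgeR). In all genes tested the interaction was called for 6.88%, 5.46% with a higher and 1.42% with a lower effect in the positive fraction. Ptger4 came next, with a difference of 1.10 (SE 0.38, adjusted p 0.0970). It was called without Positive LPS of animal 271 (adjusted p 0.0385). When the animal entered as a replicate block, the paired fit called 4 genes, Hpgd and in addition Ptger4 (1.21, adjusted p 0.0289), Ptgs2 (0.75, adjusted p 0.0214) and Ptges (0.56, adjusted p 0.0297), all of the latter 3 with the larger rise in the positive fraction. That fit leaves out Positive LPS of animal 271, which has no Input partner, and it called the interaction for 12.9% of all genes tested, 8.84% higher and 4.05% lower. For Alox5 the difference was -0.02 with a 95% confidence interval of -0.65 to 0.61, and its sign turned under other settings.

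The comparison of the positive fraction with Input showed in which RNA pool each gene was found. In PBS animals 6 genes were higher in the positive fraction, Tbxas1 (log2 ratio 4.22), Alox5 (4.08), Hpgd (4.03), Alox5ap (3.83), Hpgds (3.75) and Ptgs1 (3.28), and 2 were lower, Ptgds (-1.90) and Ptgs2 (-1.31). The adjusted p-values of these 8 ran from 1.31e-12 for Hpgd to 6.75e-04 for Ptgs2 (edgeR). Ptges (-0.06, adjusted p 0.896) and Ptger4 (0.41, adjusted p 0.255) did not pass the test. Among all genes tested 39.8% were called, 21.0% in favour of the positive fraction and 18.8% of Input. The log2 ratios had a median of 3.52 over the 10 genes and of -0.00 over all genes tested. Every one of the 6 higher genes was above its Input level in each PBS animal. Scaling on all 18 libraries moved the share of higher calls among all called genes from 52.8% to 37.6% in PBS animals, with the median of all genes at -0.12, and changed no call among the 10 genes.

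In LPS animals 7 genes were higher in the positive fraction and 2 were lower, beside 53.4% of all genes called, 27.6% higher and 25.8% lower. Here the medians were 2.30 over the 10 genes and -0.03 over all genes tested. Alox5 (4.06), Tbxas1 (3.87), Hpgds (3.55), Alox5ap (3.43) and Ptgs1 (3.09) kept log2 ratios over 3, whereas that of Hpgd was 1.38. Ptger4 joined the genes that were higher (1.51, adjusted p 6.34e-05, edgeR). Ptgds was lower (-1.56, adjusted p 4.04e-09), and so was Ptgs2 (-0.62, adjusted p 0.0330). The Ptgs2 call was lost without Input LPS of animal 266 (-0.48), 267 (-0.64) or 507 (-0.59), Positive LPS of animal 270 (-0.45) or 271 (-0.51), or animals 506 and 507 (-0.65). Ptges, at 0.51 (adjusted p 0.144), was called with the animal as a replicate block (0.50, adjusted p 7.00e-04) and without Positive LPS of animal 270 (0.72, adjusted p 0.0149).

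Within single animals, the ratio of Positive to Input normalised counts of Hpgd was 16.8, 13.7, 17.3 and 17.9 in PBS animals 268, 272, 273 and 506, and 1.89, 2.73, 3.22 and 3.39 in LPS animals 266, 267, 270 and 507. No LPS animal came near a PBS animal. The summed microglia markers had mean ratios of 18.2 ± 2.46 in PBS (SD, n = 4) and 16.0 ± 1.98 in LPS animals (n = 4). Ptger4 had ratios of 1.28, 1.52, 1.85 and 0.928 in PBS and 3.02, 2.87, 2.13 and 5.11 in LPS animals, so that its groups were apart too. For Ptges the ratios were 0.993, 0.956, 0.931 and 0.949 in PBS, and 1.57, 1.66, 1.12 and 1.31 after LPS. Ratios near 1 were also those of the neuron and astrocyte markers, with median log2 ratios of 0.11 and -0.16 in PBS and -0.07 and -0.32 in LPS animals. The part of such cells in the Ptges of the positive fraction was not tested. Ptgds ratios stayed under 1 in all animals, at 0.204 to 0.331 (PBS) and 0.295 to 0.411 (LPS). Its depletion went with that of the 6 oligodendrocyte markers, all lower in the positive fraction with median log2 ratios of -2.19 (PBS) and -1.78 (LPS), and of the 8 meningeal and choroid plexus markers (-1.39 and -1.23). Their part in the Ptgds that remained in the positive fraction was not tested.

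**Figure D3:**
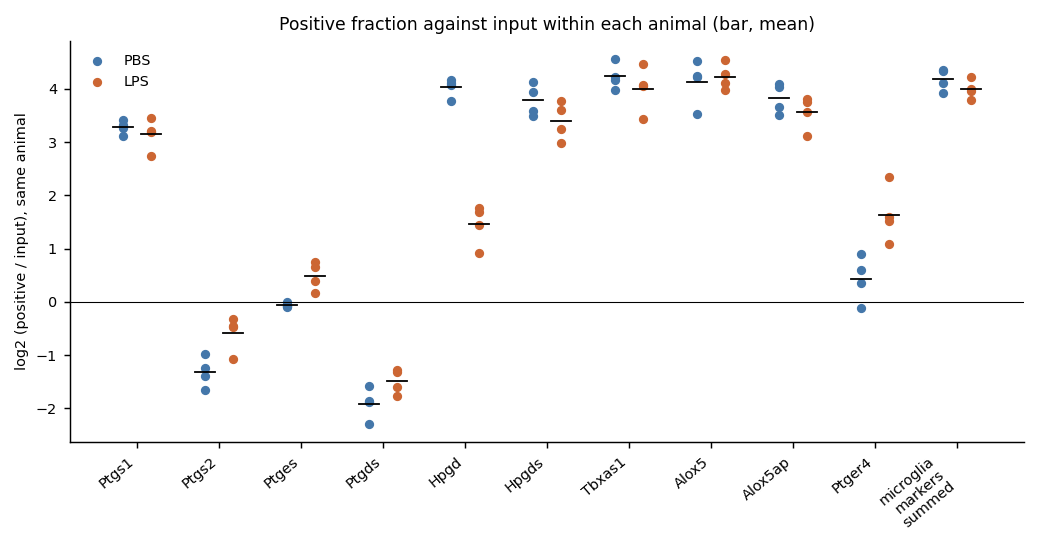
Log2 ratio of Positive to Input normalised counts within each animal for the 10 genes and for the 8 microglia markers summed, in PBS (blue) and LPS (orange) animals, 4 each, with a bar for the mean. Hpgd moved from ratios of 13.7 to 17.9 in PBS animals to 1.89 to 3.39 in LPS animals, while the summed microglia markers overlapped between treatments.

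Levels of different genes were compared per kb of exon (GENCODE exon lengths). In Positive PBS the order was Ptgds (6305 normalised counts per kb), Ptgs1 (1425), Hpgd (1402), Alox5ap (1204), Hpgds (864), Tbxas1 (420), Alox5 (170), Ptges (38.1), Ptgs2 (26.5) and Ptger4 (13.6). Library ranges overlapped between Ptgs1 and Hpgd and between Hpgd and Alox5ap, and all other neighbours were apart. After LPS the order became Ptgds (7069), Ptgs1 (1300), Alox5ap (1224), Alox5 (598), Hpgds (417), Hpgd (277), Ptges (181), Tbxas1 (177), Ptgs2 (67.7) and Ptger4 (43.4). Among neighbours in this order, Ptgds was apart from Ptgs1 and Tbxas1 from Ptgs2, and the others overlapped. Hpgd moved from place 3 to 6 and Alox5 from 7 to 4. In Input PBS, Ptgds at 23457 per kb stood far above Ptgs1 at 146, and Ptger4 (10.3) and Alox5 (9.98) were last. In Input LPS, Ptgds (20850) and Ptgs1 (152) again led, Ptges (127) came next with a range that overlapped its neighbours, and Tbxas1 (12.1) was last.

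Ratios of a pair of genes within a library do not depend on the library's scaling. Alox5 over Alox5ap, per kb, was 0.123, 0.157, 0.148 and 0.141 in Positive PBS and 0.553, 0.430, 0.515, 0.609 and 0.451 in Positive LPS. All 5 LPS libraries were higher, and this ratio varied less among them (mean 0.512 ± 0.0732, n = 5) than either gene did. The same ratio in Input rose from 0.100 to 0.156 in PBS to 0.204 to 0.437 in LPS animals, again with no overlap. Ptges over Hpgd, the enzyme that makes prostaglandin E2 over the one that inactivates it, was 0.0293, 0.0305, 0.0258 and 0.0237 in Positive PBS. After LPS it was 1.38, 0.692, 0.217, 0.766 and 0.518, so that the lowest LPS library, of animal 270, was still above every PBS library. In Input this ratio went from 0.437 to 0.495 in PBS to a mean of 1.19 ± 0.433 (n = 4) in LPS animals. The Ptgs2 over Ptgs1 ratio was lower throughout in the positive fraction, at 0.0155 to 0.0236 in PBS and 0.0221 to 0.110 in LPS animals, against 0.401 to 0.522 and 0.428 to 0.995 in Input. In both fractions the treatments overlapped through LPS animal 270, with means of 0.0188 and 0.0564 in Positive libraries and of 0.451 and 0.699 in Input libraries. In contrast, Tbxas1 over Hpgds, both of which fell, had means of 0.489 ± 0.0473 (n = 4) and 0.458 ± 0.209 (n = 5) in the positive fraction. The LPS libraries, at 0.614, 0.502, 0.258, 0.226 and 0.691, lay on both sides of the PBS range of 0.430 to 0.533. These ratios were chosen from values already known and were not tested.

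**Figure D4:**
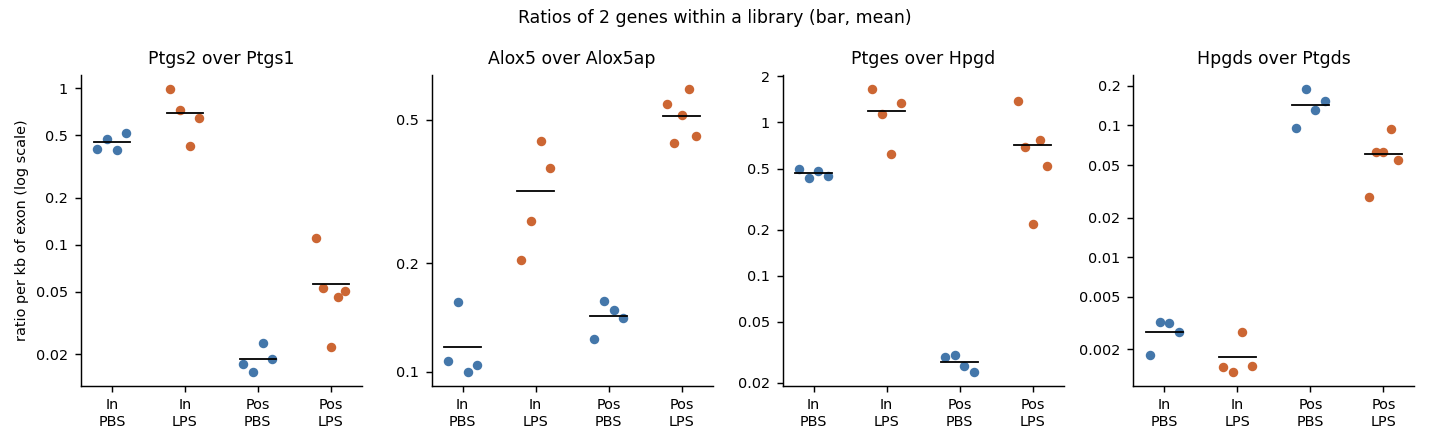
Ratio of 1 gene to another per kb of exon within each library, on a log scale, in Input (In) and Positive (Pos) libraries of PBS (blue) and LPS (orange) animals, with a bar for the mean. Alox5 over Alox5ap rose from 0.123 to 0.157 in Positive PBS to 0.430 to 0.609 in Positive LPS, and Ptges over Hpgd from 0.0237 to 0.0305 to 0.217 to 1.38.

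The genes most alike to each member were sought over the 17 libraries, by Pearson correlation of log2 normalised counts plus 1. The points share animals, and fraction and treatment separate them, so the correlations are given as a description. Ptges was most like C3 (r 0.98), Cp (0.96) and Ikbke (0.95). Hpgd was most like Smagp (0.98), Entpd1 (0.97) and Lyve1 (0.97). Alox5 had Ifi30, Naip2 and Galnt1 (0.99 each) as its nearest genes, and Tbxas1 had Olfml3, Fgd2 and Csf3r (0.99 each). For Ptgds these were Cldn11, Enpp2 and Cxcr2 (0.98 each), and for Ptgs2 they were S100a6 (0.92), Aldh1a2 (0.91) and Retnlg (0.90).

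A wider list of 63 other genes of the eicosanoid pathway had 61 in the file and 51 tested. In the positive fraction 12 of these 51 rose and 17 fell, with a median log2 fold change of -0.13. In Input 7 rose and 5 fell, with a median of -0.07. Beside these counts, 19.0% of all genes tested rose and 14.9% fell in Positive libraries, and 7.16% rose and 5.26% fell in Input. Whether the pathway list, or any part of it given below, differed from all genes was not tested. Of the 51, 18 release arachidonic acid or its precursors or otherwise act in phospholipid turnover. Of these 18, 2 rose and 8 fell in the positive fraction. The phospholipases Pla2g2d (-2.05, adjusted p 8.20e-07) and Pla2g4e (1.35, adjusted p 8.94e-05, edgeR) changed most, and Pla2g4e also rose in Input (1.42, adjusted p 2.25e-04). For the 5 tested of the other prostanoid synthases, 1 rose and 1 fell, and for the 6 of inactivation and transport likewise, with Ptgr1, a prostaglandin reductase, at 1.17 (adjusted p 0.00200).

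Downstream of Alox5, 7 other genes of leukotriene synthesis and breakdown were tested, and 2 rose and 3 fell in the positive fraction. Ltc4s, the leukotriene C4 synthase, fell from a mean of 1455 ± 79.1 normalised counts (n = 4) to 247 ± 281 (n = 5), of which animal 270 held 745, and the log2 fold change was -2.54 (SE 0.48, adjusted p 4.09e-04, edgeR). Ggt5, which converts leukotriene C4 to D4, fell from 244 ± 48.0 to 80.1 ± 21.1 (-1.59, adjusted p 4.19e-06). Cysltr1, a receptor for these cysteinyl leukotrienes and the single leukotriene receptor of 4 that was tested, fell from 267 ± 38.1 to 109 ± 50.3 (-1.29, adjusted p 0.00356). Cyp4f18, which degrades leukotriene B4, rose by 3.86 on the log2 scale (adjusted p 2.34e-06, edgeR), and in Input by 1.63 (adjusted p 0.0408). It held only 15.3 to 23.6 normalised counts in Positive PBS and 2.74 to 13.6 in Input PBS. Cyp4f18 was tested only because its LPS libraries held over 20, so its fold changes rest on a low base.

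Among 5 tested genes of the other prostanoid receptors and a receptor partner, 2 rose and 1 fell in the positive fraction. Ptgdr, a prostaglandin D2 receptor, rose from 11.1 ± 5.11 to 37.2 ± 25.2 normalised counts (1.69, adjusted p 0.0180, edgeR). Its groups overlapped, at 3.82 to 15.7 in PBS and 5.56 to 69.2 in LPS animals, so the fold change rests on a low base. Input means of Ptgdr were higher, at 27.1 in PBS and 67.7 in LPS animals. The Input change of 1.31 did not pass the test (adjusted p 0.0776, edgeR). Ptgfrn, which encodes an inhibitor of the prostaglandin F2 receptor, rose in the positive fraction from 1647 ± 110 to 4007 ± 563 (1.28, adjusted p 1.00e-08, edgeR). Of 5 further lipoxygenases and epoxide hydrolases, 2 rose and 2 fell, with Alox12b at 1.35 (adjusted p 3.62e-04). In Input, Alox12b (1.17, adjusted p 0.00335) and Aloxe3 (1.07, adjusted p 1.12e-04) rose as well. Among the 4 resolution genes, the formyl peptide receptors Fpr1 and Fpr2, the latter also a lipoxin receptor, rose by 6.01 (adjusted p 1.50e-07) and 6.37 (adjusted p 1.41e-07) in the positive fraction and by 3.15 and 3.03 in Input, and their ligand Anxa1 rose by 1.04 in Input (adjusted p 0.0130, edgeR). Neutrophils and monocytes also carry formyl peptide receptors, and their part in these values was not tested.

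**Figure D5:**
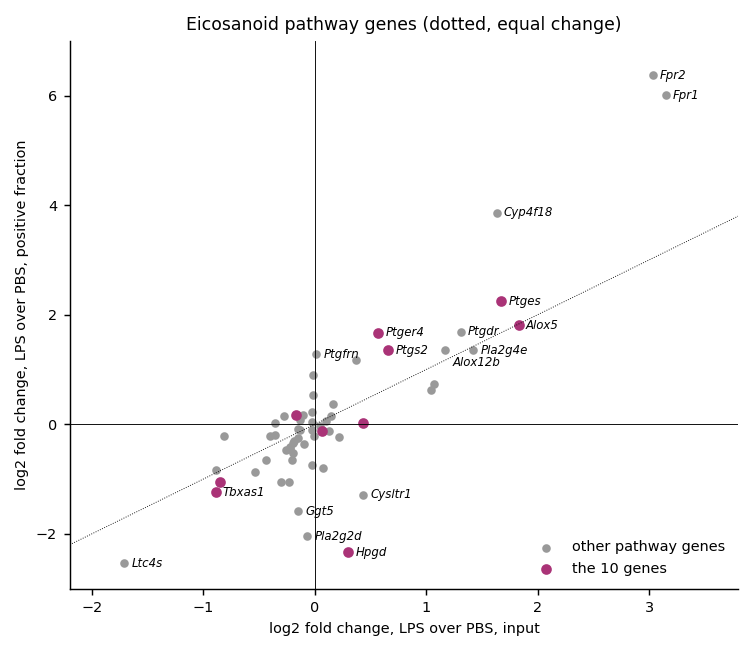
Log2 fold change of LPS over PBS in the positive fraction against that in input, for the 10 genes (purple) and the 51 other pathway genes tested (grey), with a dotted line of equal change. Fpr1 and Fpr2 lay at the top right, and Hpgd and Pla2g2d lay low on the vertical axis with input changes near 0.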

How the data were processed

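RNA of Input and Positive TRAP fractions was sequenced from polyA-selected, strand-specific libraries. The authors aligned reads to mm10 by strand in Strand NGS and deposited 1 estimated count for each RefSeq gene model and library, of which 81.6% of nonzero values were not whole, beside log2 normalised values, which were not used here. The counts were rounded and divided by median-of-ratios size factors over 15766 genes (0.766 to 1.32). The filter, as in the study, asked for over 20 normalised counts in all libraries of some group, and 14803 genes passed. They were fitted with edgeR 4.0.16 (glmQLFit, glmQLFTest) in R 4.3.3, each group having its own mean (13 residual degrees of freedom). The 5 contrasts were the LPS effect in each fraction, Positive over Input in each treatment and the interaction. The script was tested on simulated counts. In place of the study's analysis of variance, with the factors fraction and treatment, a count model was used; its threshold and fold were kept.

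The 10 genes, the pathway and marker lists and the rules were chosen with earlier results of these data known. Named are all 10 genes and the 3 most alike genes of 6 members. Other pathway genes are named if called in an LPS effect with an absolute log2 fold change over 1 (at most 12 per fraction). Up to 3 markers per list are named, apart from markers named after their values were seen. The latter were Lyve1, Cd163, Ly6g, Acta2, P2ry12, Cx3cr1, Itgam, C1qa, Slc1a2, Gp1bb, Gp9, Itga2b, Gp1ba, S100a9, Ngp, Retnlg, Ccr2 and Cxcr2. Rn45s was also named after its values were seen. Prxl2b and Ptgdr2 were not used here.

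Input and Positive libraries of an animal are paired by design. Deviations from group means of the same animal correlated at 0.16 to 0.52 in the 8 pairs. A fit with the animal as a replicate block, without animal 271, was an alternative, since the study used none. The others were DESeq2 1.42.0, limma 3.58.1 on log2 (normalised count + 1), TMM scaling, no filter, sex as a covariate, all 18 libraries, each fraction alone, without animals 506 and 507, and each library left out in turn. At 22968939 to 35123345 counts a library, counting error is small for all but the lowest genes, and the number of animals limits precision.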

Additional observations from a re-analysis of the deposited data

Results flagged for a closer look

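Of the 10 genes, Hpgd had an LPS effect that differed between the fractions by the interaction test (log2 difference, positive fraction minus Input, -2.64). Among the other pathway genes named, the same test separated the fractions for Fpr1 (2.86), Fpr2 (3.35), Ptgfrn (1.27), Ggt5 (-1.45) and Pla2g2d (-1.98). The Fpr2 value rests on a low base in PBS libraries.

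Single samples lay far from the others of their group by Dixon's criterion, in normalised counts. In Input PBS these were Tbxas1 in animal 268 (52.7), Alox5 in animal 272 (40.8) and Ggt5 in animal 272 (76.4). In Input LPS they were Cyp4f18 in animal 267 (35.9) and Pla2g4e in animal 270 (1169), and in Positive LPS Ltc4s in animal 270 (745). Over 96 groups examined, chance flags about 1 in 20.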

How the results depend on the processing

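Over 1250 alternative values of the 50 gene and contrast results of the 10 genes, 1207 kept their direction and side of the threshold, 12 lost and 11 gained a call, and 20 turned sign. Genes called numbered 7 for LPS in the positive fraction, 8 for Positive over Input in PBS, and 1 for the interaction, which gave 4 with the replicate block, where calls over all genes rose from 1018 to 1908 of 14803 (6.88% to 12.9%), and 1 to 2 when single libraries were left out (2 without Positive LPS of animal 271). For LPS in Input, the main fit called 2 genes higher and 1 lower, and fits without a single library called between 2 and 4. For Positive over Input in LPS, the main fit called 7 higher and 2 lower, and fits without a single library called 8 or 9. Without animals 506 and 507, calls over all genes went from 1018 to 323 for the interaction and from 1839 to 1083 for LPS in Input. Besides the calls given with their genes, the replicate block changed none of the 10 genes' calls.

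The signs that turned belonged to values that were not called. The Alox5 interaction was 0.00 with limma, 0.01 with all 18 libraries, 0.17 without animals 506 and 507, 0.12 with the replicate block and -0.25 to 0.18 without single libraries. The LPS effect on Alox5ap in the positive fraction was -0.07 with limma, -0.11 without animals 506 and 507 and -0.18 to 0.19 without single libraries. That on Ptgs1 in Input was -0.03 without animals 506 and 507 and -0.01 to 0.11 without single libraries, and Ptges in Positive over Input in PBS was -0.12 to 0.01. The causes were not tested. The p-values of the LPS effects measure the spread between these animals, 4 or 5 a group, with mixed sexes, and a fixed 24 h time point. For comparisons between fractions, the main fit treated the Input and Positive libraries of an animal as independent. Its p-values there do not use the pairing.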
